A study of Mus musculus with 30 samples.

Results

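Retinoid metabolism genes were followed in mouse back skin after chemical irritation, by the 9 symbols Lrat, Stra6, Crabp1, Crabp2, Dhrs9, Aldh1a1, Aldh1a3, Cyp26b1 and Rarb. Every probe set whose gene symbol was one of these was taken, which gave 11 of the 45037 probe sets on the array, for 8 genes. All 11 were among the 36029 tested, after the 20% of probe sets with the lowest mean were left out. No probe set carried the symbol Dhrs9, so that gene was not analysed here. Lrat had 2 probe sets and Aldh1a3 had 3, and the other genes had 1 each. For a gene with several, the probe set with the highest mean is quoted first and the others are given beside it.

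Skin came from WT and D6-deficient female mice of the strain 129–C57BL/6, 8 to 12 weeks old. D6 (the gene Ccbp2) is a receptor that takes up and degrades inflammatory CC chemokines without classical signaling. The mice were deficient in every tissue, so no result can be placed in 1 cell type by the genotype. TPA, a phorbol ester that irritates skin, was painted on the shaved back 3 times at 24 h intervals at 50 µM. Skin was collected 1, 2, 4 or 6 days after the last application. Controls of each genotype received acetone alone and stand as day 0, although the titles of those samples call them untreated. Each of the 10 groups held 3 arrays from separate mice, 30 in all, and the same control arrays enter every comparison with day 0 in a genotype. The question was how these genes moved during the response and whether the genotypes differed.

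Retinol reaches cells bound to a carrier and can enter through the membrane receptor Stra6. Lrat esterifies it for storage. Retinol dehydrogenases turn it into retinal, and the retinaldehyde dehydrogenases Aldh1a1 and Aldh1a3 oxidize retinal to retinoic acid. Crabp1 and Crabp2 carry retinoic acid in the cytoplasm, Cyp26b1 breaks it down, and the receptor Rarb, itself a retinoic acid target gene, binds it in the nucleus. In skin, retinoic acid is known for its part in keratinocyte differentiation, sebaceous glands and the hair follicle.

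Promoter windows of 300 bases, from 250 bases before to 50 bases after a transcript start, were listed for 7 of the 9 genes in RefSeq (GRCm38.p6). They were searched on either strand for a direct repeat of the retinoic acid receptor core motif with 5 bases between its copies, known as DR5, and for the AP-1 letters TGAGTCA or TGACTCA, since TPA is a classical inducer of AP-1. The Rarb and Aldh1a1 windows are shown because both genes were lower after TPA in the results that follow and their windows held one of these motifs, marked in capitals. The second Aldh1a1 window held neither and is shown beside the first. The Rarb window lies at chr14:16575427-16575726 on the minus strand, with the repeat from -53 to -37. The Aldh1a1 windows, of separate annotated starts, lie at chr19:20492333-20492632 and chr19:20601718-20602017 on the plus strand, and the first holds the AP-1 letters from -57 to -51.
Rarb: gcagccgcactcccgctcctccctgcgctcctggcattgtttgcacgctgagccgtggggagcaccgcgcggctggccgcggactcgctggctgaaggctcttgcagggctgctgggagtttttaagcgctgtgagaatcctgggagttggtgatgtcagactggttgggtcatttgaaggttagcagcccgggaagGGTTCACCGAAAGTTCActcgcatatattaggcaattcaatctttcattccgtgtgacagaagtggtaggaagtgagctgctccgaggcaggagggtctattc
Aldh1a1, upstream start: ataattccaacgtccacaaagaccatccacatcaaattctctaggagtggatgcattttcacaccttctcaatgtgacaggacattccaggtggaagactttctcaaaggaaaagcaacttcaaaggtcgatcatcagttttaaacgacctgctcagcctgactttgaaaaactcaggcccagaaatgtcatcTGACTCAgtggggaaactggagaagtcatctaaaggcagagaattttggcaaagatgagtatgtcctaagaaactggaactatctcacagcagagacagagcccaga
Aldh1a1, downstream start: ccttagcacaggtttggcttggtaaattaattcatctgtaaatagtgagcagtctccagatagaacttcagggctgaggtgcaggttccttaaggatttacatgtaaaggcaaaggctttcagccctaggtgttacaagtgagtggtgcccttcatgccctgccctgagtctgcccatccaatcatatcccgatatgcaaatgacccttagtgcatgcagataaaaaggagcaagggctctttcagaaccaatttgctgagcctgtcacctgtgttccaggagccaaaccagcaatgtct
The repeat was present in 32 of 32851 windows of the same length in the table, or 0.0974%, and Rarb was the 1 listed gene with it. The AP-1 letters were present in 1709 windows, or 5.2%, among them that of Dhrs9. The 2 motifs did not overlap in these windows. A match describes letters and is no evidence of binding.

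Values are log2 of the intensities and read as levels, so a step of 1 is a doubling. No intensity is compared between genes, since probe sets differ in brightness. A change passed when its Benjamini-Hochberg adjusted p in limma was under 0.05 over all tested probe sets, and the more than 3-fold threshold that the study used is given as a stricter rule. With 3 arrays in a group, an exact permutation test has no p below 0.10 to give, so the tests rest on the spread shared by all arrays. The tissue is whole skin, in which fewer cells of a type and less RNA per cell cannot be told apart.

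Of 14 lists of cell type markers, those of basal keratinocytes and fibroblasts averaged at least 10.50 and 12.65 on every array. Of the 3 Ccbp2 probe sets, 1 separated the genotypes, at 4.15 to 5.76 on WT arrays and 3.30 to 3.86 on D6-deficient arrays. The list of 6 hair shaft and follicle markers lay between 4.26 and 4.69 on every array of days 0, 2 and 4, but between 7.25 and 12.86 on every array of days 1 and 6, in both genotypes. Of the melanocyte markers, 5 of 5 were higher at days 1 and 6 in each genotype, and 2 of 5 were also higher at day 2 in D6-deficient skin, where the list mean was 6.82 against 5.56 at day 0. The mean of the neutrophil list went from 7.12 at day 0 to 9.87 at day 2 in WT skin, and from 8.03 to 11.87 in D6-deficient skin. Skeletal muscle markers fell in 5 of 5 at every day in each genotype. The part of these shifts in the results for the retinoid genes was not tested, and values of some of these lists are given beside the genes.

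Against day 0, 3 of the 11 probe sets passed in WT skin at day 1 (24% of all tested probe sets passed), 5 at day 2 (26.1%), 7 at day 4 (39.1%) and 4 at day 6 (22.1%). In D6-deficient skin the numbers were 5 at day 1 (36.3%), 9 at day 2 (38.1%), 7 at day 4 (41.1%) and 7 at day 6 (31.7%). With more than 3-fold added, they were 2, 1, 5 and 0 in WT skin and 0, 5, 4 and 1 in D6-deficient skin, where the shares of all probe sets were 1.77%, 1.9%, 3.24% and 1.34%, and 2.49%, 3.27%, 4.01% and 2.13%. At days 1, 2, 4 and 6 the median change of the 11 was 0.51, 0.60, 0.83 and 0.24 in WT skin. In D6-deficient skin it was 0.75, 0.97, 0.53 and 0.73, and over all probe sets the medians lay between -0.01 and 0.02. The medians of the 11 count Aldh1a3 3 times and Lrat 2 times, so they are not medians over genes. That of 0.97 is the change of 1 of the 2 Lrat probe sets (1421345_at). The genes split by direction. Lrat, Crabp1, Crabp2, Aldh1a3 and Stra6 rose where they passed, while Aldh1a1, Cyp26b1 and Rarb fell.

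**Figure D1:**
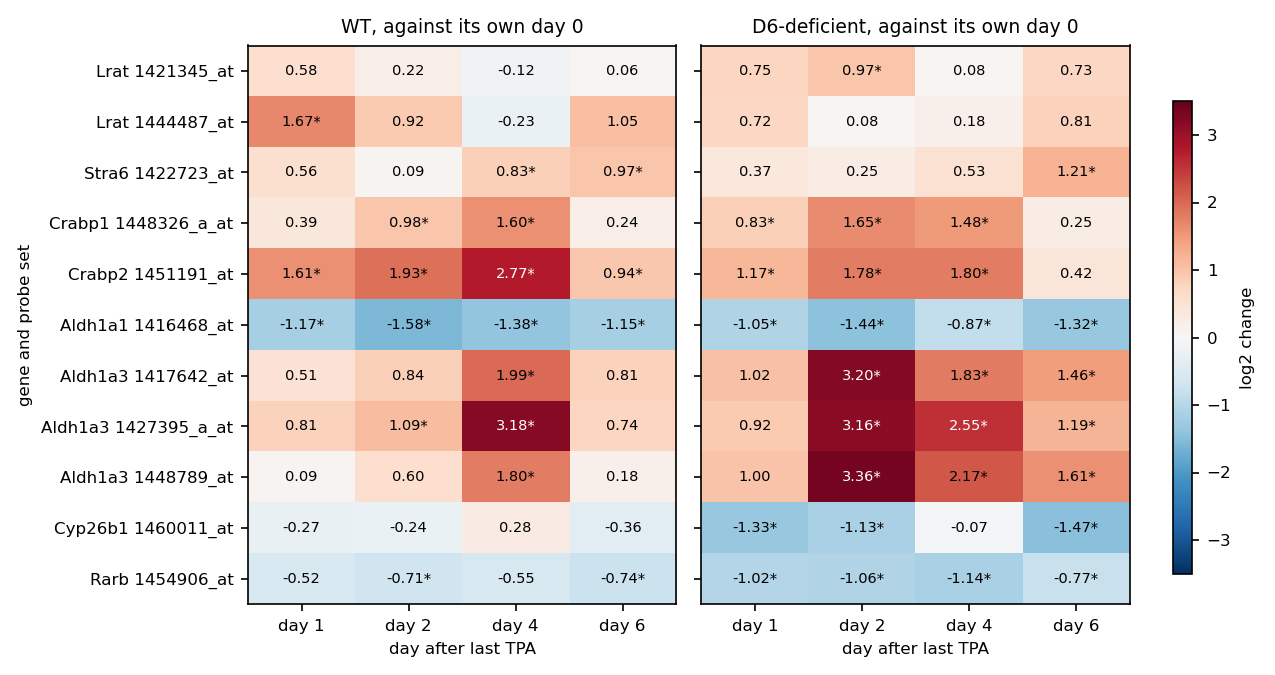
Log2 change from day 0 of the same genotype, for the 11 probe sets (rows) at days 1, 2, 4 and 6 (columns), in WT skin (left) and D6-deficient skin (right); red is higher and blue lower, and an asterisk marks an adjusted p under 0.05. The 3 Aldh1a3 probe sets are at 3.16 to 3.36 at day 2 in D6-deficient skin and at 0.60 to 1.09 in WT skin.

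**Figure D2:**
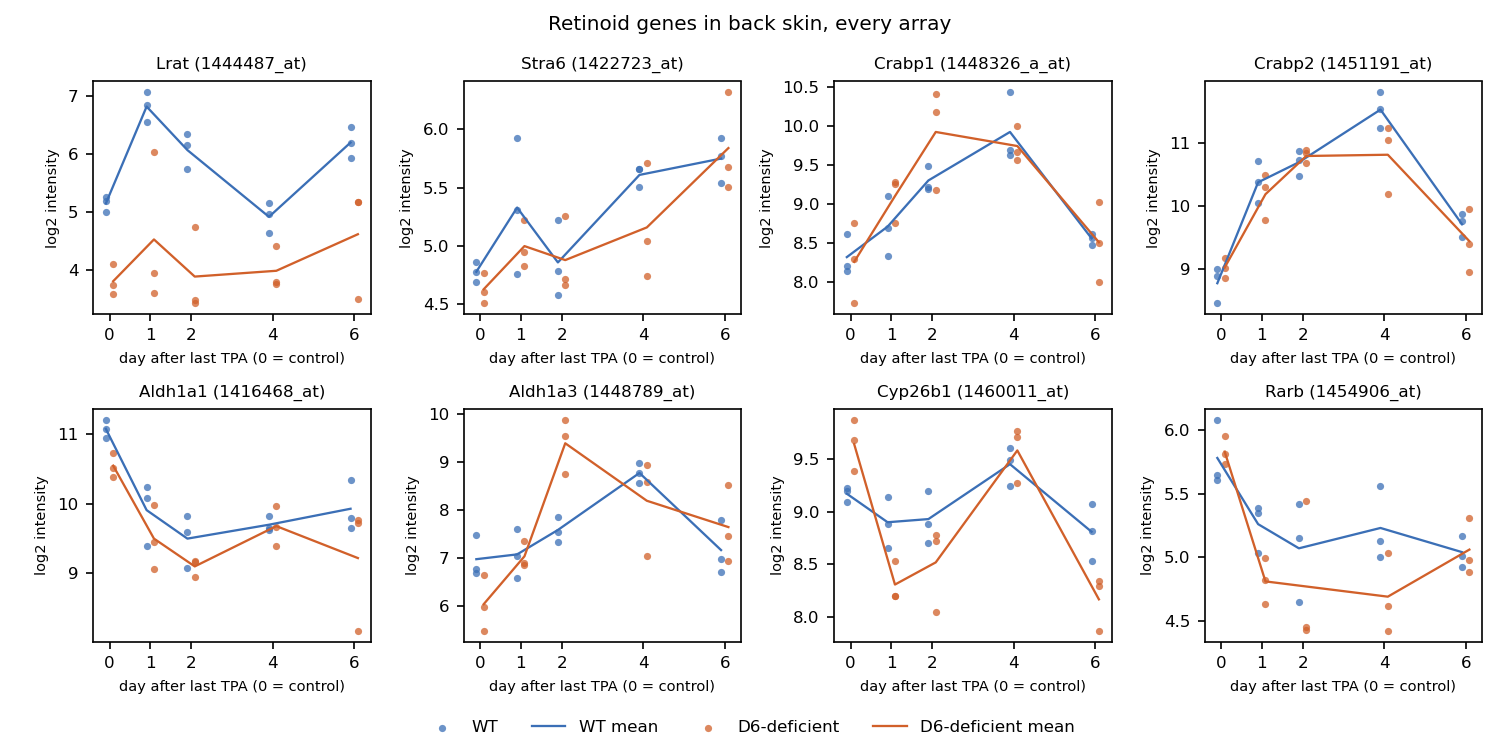
Log2 intensity (vertical axis) of the quoted probe set of each of the 8 genes by day (horizontal axis), with a point for each array and a line through the means of 3 arrays, WT in blue and D6-deficient in orange; each panel has its own vertical scale. Lrat is lower in D6-deficient skin without overlap at each of the 5 days, and Aldh1a3 has its highest mean at day 2 in D6-deficient skin and at day 4 in WT skin.

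Lrat, the retinol esterifying enzyme, was lower in D6-deficient skin on its brighter probe set (1444487_at) at each of the 5 days, with no overlap of the arrays. In WT skin this probe set read 4.99, 5.26 and 5.18 at day 0, 6.84, 6.54 and 7.06 at day 1, 5.73, 6.14 and 6.33 at day 2, 4.63, 5.14 and 4.95 at day 4, then 6.19, 6.46 and 5.92 at day 6. In D6-deficient skin it read 3.58, 4.09 and 3.73 at day 0, 3.59, 3.94 and 6.02 at day 1, 4.74, 3.42 and 3.47 at day 2, 3.75, 3.79 and 4.40 at day 4, then 5.17, 3.49 and 5.17 at day 6. Of the 15 D6-deficient arrays, 11 lay below the lowest WT array, and the other 4 were scattered over days 1, 2 and 6. The genotype difference passed at day 2, at -2.19 on the log2 scale (SE 0.46, adjusted p = 0.0046). It was -1.34 at day 0, -2.30 at day 1, -0.93 at day 4 and -1.58 at day 6, with adjusted p from 0.062 to 0.51. Over all 5 days, a comparison added after these values were seen, it was -1.67 (SE 0.21, adjusted p = 1.1e-05), where 5.52% of all probe sets passed. Both this and the day 2 difference stayed past the threshold without any single array. Its change from day 0 did not pass as different between the genotypes at any day, with 95% intervals such as -2.30 to 0.38 at day 1.

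In WT skin Lrat rose at day 1 by 1.67 (SE 0.46, adjusted p = 0.0095), and the days with the highest WT means were days 1 and 6, when the hair follicle markers were high. At day 2 the WT mean was still 6.06, when the hair follicle list was at 4.36. The dimmer probe set (1421345_at), whose mean of 3.94 lay close to the lowest mean kept of 3.72, did not share the genotype difference. Over all 5 days its difference was 0.27 (SE 0.16, adjusted p = 0.37). Several D6-deficient arrays that were low on the brighter probe set were high on this one. At day 2 the D6-deficient arrays read 3.94, 4.83 and 4.86 on it, in the same order as the 4.74, 3.42 and 3.47 above, and at day 6 they read 3.36, 5.77 and 3.79. It passed as higher at day 2 in D6-deficient skin, at 0.97 (SE 0.35, adjusted p = 0.03), but in 2 of 6 fits with 1 array left out (adjusted p = 0.12 without D6-deficient day 2 replicate 2). The genotype difference in Lrat thus depended on the probe set. In D6-deficient skin the brighter one was also close to the lowest mean kept, at 3.80, 3.88 and 3.98 as means of days 0, 2 and 4. The sizes of its genotype differences are therefore uncertain. Whether the sequence under either probe set differs between the 129 and C57BL/6 parts of the mixed background was not tested, and such a difference would change what these intensities measure.

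**Figure D3:**
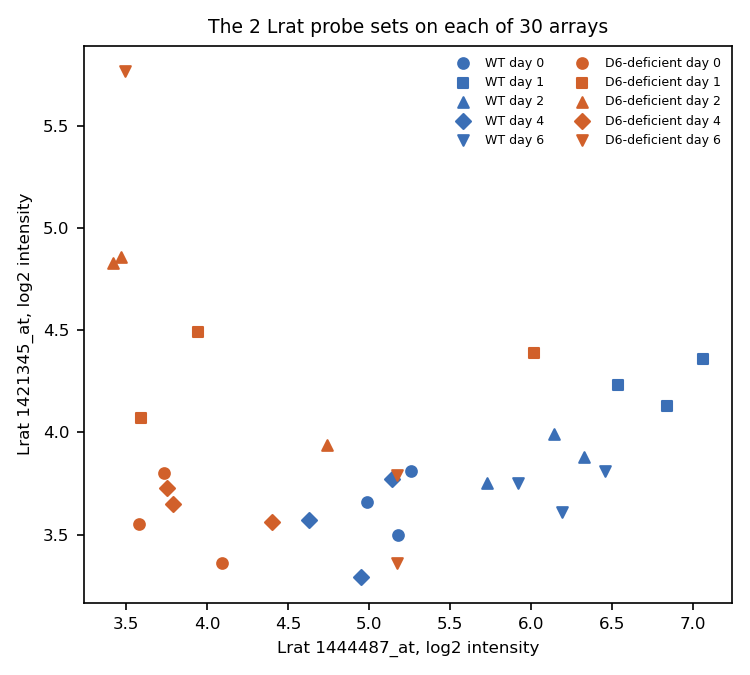
Log2 intensity of the dimmer Lrat probe set (vertical axis) against the brighter one (horizontal axis) on each of the 30 arrays, with genotype by color and day by marker shape. WT arrays lie at 4.63 to 7.06 on the brighter probe set, and the D6-deficient arrays with the highest values on the dimmer probe set, 4.83, 4.86 and 5.77, lie at 3.42 to 3.49 on the brighter one.

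Stra6, the retinol receptor, passed against day 0 only at the later days. At day 1 the WT arrays read 5.31, 5.93 and 4.76 and the D6-deficient arrays 5.22, 4.95 and 4.83. At day 2 the means were 4.86 and 4.88, and Stra6 did not pass at day 1 or day 2 in either genotype. In WT skin it read 4.78, 4.69 and 4.86 at day 0, 5.51, 5.66 and 5.66 at day 4, then 5.93, 5.54 and 5.77 at day 6, so the later arrays lay above all controls. Its change of 0.83 at day 4 (SE 0.25, adjusted p = 0.011) and of 0.97 at day 6 (adjusted p = 0.0076) passed. In D6-deficient skin the day 0 arrays were at 4.77, 4.61 and 4.51 and those of day 6 at 5.68, 6.32 and 5.51, a change of 1.21 (SE 0.25, adjusted p = 8.3e-04). At day 4 the D6-deficient arrays were spread from 4.74 to 5.71 and the change of 0.53 did not pass. The genotypes were not shown to differ at day 4, where the difference was -0.45 with a 95% interval of -0.97 to 0.07. From day 4 to day 6 D6-deficient skin rose by a further 0.68 (SE 0.25, adjusted p = 0.044), which passed in 2 of 6 fits with 1 array left out and was weakest without D6-deficient day 6 replicate 2 (0.44, adjusted p = 0.25).

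Crabp2, a carrier that delivers retinoic acid to its receptors, rose at every day in WT skin and at days 1, 2 and 4 in D6-deficient skin. In WT skin it read 8.45, 8.99 and 8.88 at day 0, 10.73, 10.88 and 10.48 at day 2, then 11.25, 11.55 and 11.82 at day 4. The day 4 change of 2.77 (SE 0.25, adjusted p = 9.9e-09) is 6.81-fold. The smallest WT change, 0.94 at day 6 (adjusted p = 0.0093), was lost without WT day 0 replicate 1 (0.78, adjusted p = 0.061). In D6-deficient skin it read 9.18, 8.85 and 9.02 at day 0, 10.69, 10.84 and 10.89 at day 2, then 10.19, 11.05 and 11.24 at day 4. WT skin thus went on rising from day 2 to day 4, by 0.84 (SE 0.25, adjusted p = 0.025), and the D6-deficient means at these days were 10.80 and 10.82. The genotypes were not shown to differ in this step (-0.82, 95% interval -1.56 to -0.08, adjusted p = 0.43). The WT step was among 3 of 11 probe sets that passed, where 14.5% of all did (1.16% with more than 3-fold). It passed in 2 of 6 fits with 1 array left out and was weakest without WT day 4 replicate 3 (0.70, adjusted p = 0.13). At day 4 the D6-deficient arrays lay just below the WT arrays, with a difference of -0.71 (95% interval -1.24 to -0.19) that did not pass (adjusted p = 0.26).

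Crabp1, which also binds retinoic acid in the cytoplasm, rose over a similar course. Its WT arrays read 8.21, 8.62 and 8.14 at day 0, 9.21, 9.19 and 9.49 at day 2, then 9.63, 9.69 and 10.43 at day 4. The day 4 change was 1.60 (SE 0.30, adjusted p = 1.5e-04), and that of day 2, 0.98 (adjusted p = 0.017), passed in 3 of 6 fits with 1 array left out and was weakest without WT day 0 replicate 3 (0.89, adjusted p = 0.065). The D6-deficient changes of days 1, 2 and 4 were 0.83, 1.65 and 1.48 (adjusted p = 0.031, 1.1e-04 and 3.0e-04). The day 1 change passed in 2 of 6 fits with 1 array left out, and it was weakest without D6-deficient day 0 replicate 3, which was at 7.73 (0.57, adjusted p = 0.19). By day 6 the mean of Crabp1 was 8.56 for WT skin and 8.51 for D6-deficient skin, within the spread of the controls. From day 4 to day 6 it fell by 1.36 on the log2 scale in WT skin and by 1.23 in D6-deficient skin (SE 0.30, adjusted p = 0.0016 and 0.0026), and Crabp2 fell by 1.83 and by 1.39 (SE 0.25, adjusted p = 9.6e-06 and 1.7e-04). In this step 7 of the 11 probe sets passed in WT skin, where 22.1% of all did (2.03% with more than 3-fold), and 5 in D6-deficient skin, where 31.4% did (3.13%). They were 6 lower and 1 higher in WT skin, and 4 lower and 1 higher in D6-deficient skin. The 1 higher in WT skin was Lrat (1444487_at), by 1.28, which passed in none of 6 fits with 1 array left out. In D6-deficient skin it was Stra6. Over the 10 group means Crabp1 and Crabp2 had a Pearson r of 0.92, as a description of groups that share their controls and their mice. The neutrophil list mean was 7.12, 9.87, 11.21 and 8.78 at days 0, 2, 4 and 6 in WT skin. In D6-deficient skin it was 8.03, 11.87, 11.47 and 9.26. Its part in the changes of these 2 genes was not tested.

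Aldh1a3, a retinoic acid synthesizing enzyme, had the largest rise of the 8 genes in D6-deficient skin at day 2. In WT skin the change of Crabp2 was larger than that of Aldh1a3 at day 2 (1.93), and at day 4 larger than on 2 of the 3 Aldh1a3 probe sets, sizes that were not tested against each other. In D6-deficient skin the quoted probe set (1448789_at) read 5.98, 6.63 and 5.47 at day 0, 8.74, 9.88 and 9.54 at day 2, then 7.04, 8.59 and 8.94 at day 4. In WT skin it read 6.76, 7.48 and 6.68 at day 0, 7.33, 7.54 and 7.86 at day 2, then 8.57, 8.98 and 8.77 at day 4. All D6-deficient arrays of day 2 lay above all WT arrays of that day, while by day 4 the groups overlapped on this probe set. The D6-deficient change at day 2 was 3.36 (SE 0.43, 10.3-fold, adjusted p = 1.5e-06), and the WT change of 0.60 did not pass. The WT changes on the other 2 probe sets were 0.84 and 1.09 at this day, and that of 1.09 (1427395_a_at, adjusted p = 0.035) passed in none of 6 fits with 1 array left out. At day 4 WT skin had risen by 1.80 (SE 0.43, adjusted p = 0.0018) and D6-deficient skin by 2.17 (SE 0.43, adjusted p = 2.5e-04). The other 2 probe sets gave 3.20 and 3.16 at day 2 in D6-deficient skin, and 1.99 and 3.18 at day 4 in WT skin, all past the threshold. From day 4 to day 6 the WT changes of the 3 probe sets were -1.18, -2.44 and -1.61 (adjusted p = 0.048, 4.1e-05 and 0.0081), the first of them lost in each of 6 fits with 1 array left out. The D6-deficient changes in this step were -0.37, -1.36 and -0.56, and that of -1.36 (1427395_a_at, SE 0.38, adjusted p = 0.0082) passed, in 4 of 6 fits with 1 array left out.

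The direct test of the genotypes at day 2 called 4 of the 11 probe sets, where 4.45% of all passed (0.572% with more than 3-fold). These were the 3 of Aldh1a3, higher in D6-deficient skin (2.46% of all were higher), and Lrat, lower (1.99%). The Aldh1a3 differences were 1.78, 1.83 and 1.81 (SE 0.43, 0.38 and 0.43, adjusted p = 0.014, 0.0042 and 0.013), or 3.42- to 3.55-fold. When each genotype was taken relative to its day 0, the 3 Aldh1a3 probe sets, and no other of the 11, passed, where 5.4% of all did (1.11% with more than 3-fold). Their differences were 2.37, 2.07 and 2.76 (SE 0.60, 0.54 and 0.61, adjusted p = 0.02, 0.022 and 0.007). Without D6-deficient day 2 replicate 2, the same-day difference fell short on 2 probe sets (1.51 and 1.57, adjusted p = 0.11 and 0.099) and was 1.63 on the third (adjusted p = 0.04). Over all fits with 1 array left out, those 2 passed in 3 of 6 and 1427395_a_at in 6 of 6. Relative to day 0 and without that replicate, the 3 differences were 2.10, 1.87 and 2.52 (adjusted p = 0.073, 0.076 and 0.029), and the first 2 of them passed in 9 of 12 such fits. At day 2 neutrophil markers also differed, with 3 of 5 higher in D6-deficient skin (9.56 to 10.42 in WT and 11.25 to 12.39 in D6-deficient skin as the list mean), and 2 of 5 sebocyte markers were lower (9.75 to 10.08 and 7.82 to 9.19). Skeletal muscle markers were also lower in D6-deficient skin in 2 of 5. Whether these shifts had a part in the Aldh1a3 difference was not tested.

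The step from day 2 to day 4 was tested in comparisons added after the values were seen. In WT skin 1 Aldh1a3 probe set (1427395_a_at) rose by 2.09 (SE 0.38, adjusted p = 3.9e-04). In D6-deficient skin another (1417642_at) fell by 1.38 (SE 0.43, adjusted p = 0.028), which was 1 of 2 probe sets that passed where 16.3% of all did (1.3% with more than 3-fold). That decrease passed in 3 of 6 fits with 1 array left out and was weakest without D6-deficient day 4 replicate 1, at 5.06 beside 7.06 and 7.45 (-0.65, adjusted p = 0.28). The genotypes differed in the step from day 2 to day 4 by -2.53 on that probe set, -2.71 on 1427395_a_at and -2.39 on the quoted one (adjusted p = 0.044, 0.011 and 0.063), so 2 of 11 passed where 0.841% of all did. The difference of -2.71 remained past the threshold without any single array, and that of -2.53 in 3 of 12 such fits. Ordered by mean, the quoted probe set was highest in D6-deficient skin at day 2 (9.39), then in WT skin at day 4 (8.77) and in D6-deficient skin at day 4 (8.19), and lowest in D6-deficient controls (6.03). Arrays overlapped between 8 of 9 neighbours in this order, the exception being WT controls over D6-deficient controls, a difference of -0.95 that did not pass (adjusted p = 0.31).

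At day 6 Aldh1a3 was still above day 0 in D6-deficient skin, by 1.46, 1.19 and 1.61 (adjusted p = 0.011, 0.019 and 0.006), and in WT skin the changes of 0.81, 0.74 and 0.18 did not pass. D6-deficient day 6 replicate 2 was the highest array on each probe set, at 6.96, 7.90 and 8.51, and without it the changes were 1.06, 0.64 and 1.17 (adjusted p = 0.091, 0.2 and 0.06). That of 1427395_a_at was also lost without D6-deficient day 0 replicate 1 (1.07, adjusted p = 0.069). The genotypes were not shown to differ at this day.

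**Figure D4:**
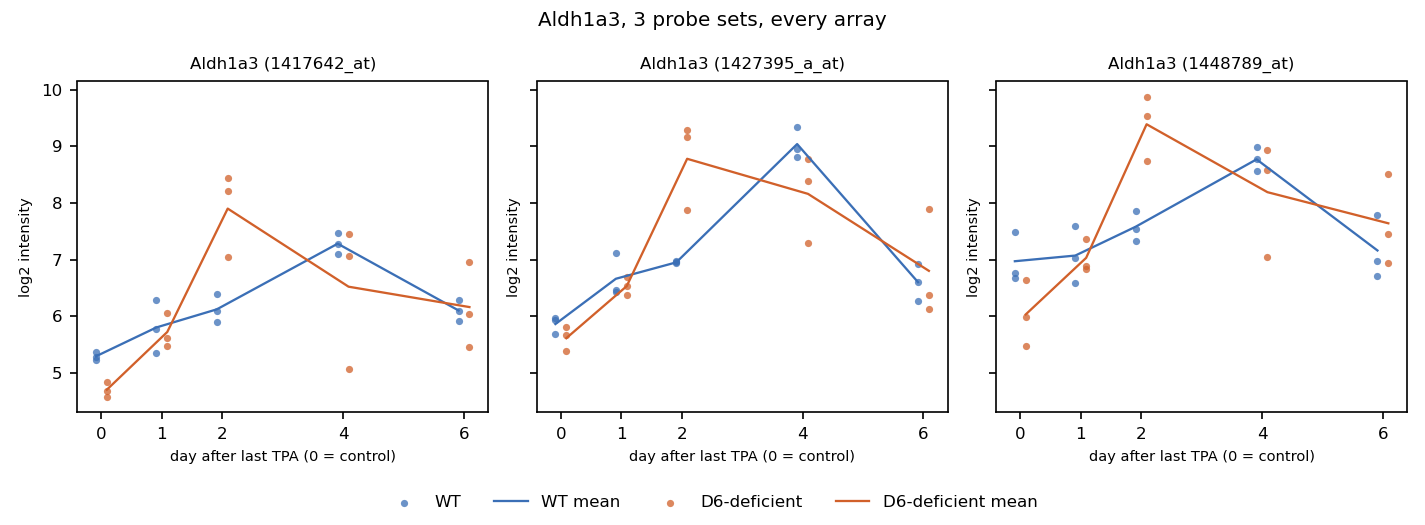
Log2 intensity (vertical axis, shared) of the 3 Aldh1a3 probe sets by day (horizontal axis), with a point for each array and a line through the means of 3 arrays, WT in blue and D6-deficient in orange. On each probe set the D6-deficient arrays of day 2 lie above the WT arrays, while at day 4 the D6-deficient arrays are spread, from 5.06 to 7.45 on the left panel.

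Aldh1a1, which performs the same oxidation as Aldh1a3, moved the opposite way and fell at every day in both genotypes. In WT skin it read 11.08, 10.95 and 11.21 at day 0, then 9.82, 9.07 and 9.60 at day 2. In D6-deficient skin it read 10.52, 10.39 and 10.73 at day 0, then 9.18, 9.17 and 8.95 at day 2. Every TPA array lay below every control array of its genotype. The changes ran from -1.15 to -1.58 in WT skin and from -0.87 to -1.44 in D6-deficient skin (SE 0.31). The WT changes of days 1 and 6 and the D6-deficient change of day 1 were lost without WT day 1 replicate 1 (-0.91, adjusted p = 0.065), WT day 6 replicate 2 (-1.08, adjusted p = 0.05) and D6-deficient day 1 replicate 1 (-0.83, adjusted p = 0.071). The smallest, at day 4 in D6-deficient skin (adjusted p = 0.028), passed in 2 of 6 fits with 1 array left out, was weakest without D6-deficient day 4 replicate 1 (-0.73, adjusted p = 0.1), and was lost when each array was centred on its median (-0.76, adjusted p = 0.054). At day 6 D6-deficient replicate 2 was at 8.17 beside 9.73 and 9.77, and without it the change of -1.32 became -0.80 (adjusted p = 0.028). No genotype difference passed, and over all 5 days it was -0.41 (95% interval -0.70 to -0.13, adjusted p = 0.087). Skeletal muscle markers fell beside it, from 13.85 to 14.04 as the list mean in WT controls to 12.65 to 12.73 at day 2, and sebocyte markers fell in 3 of 5 at day 2 in each genotype. Their part in the fall of Aldh1a1 was not tested.

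Cyp26b1, the enzyme that breaks down retinoic acid, fell in D6-deficient skin at days 1, 2 and 6 and was back at the control level at day 4. The D6-deficient arrays read 9.39, 9.87 and 9.68 at day 0, 8.20, 8.20 and 8.53 at day 1, 8.05, 8.72 and 8.78 at day 2, 9.76, 9.27 and 9.71 at day 4, then 8.30, 7.87 and 8.34 at day 6. The changes from day 0 were -1.33, -1.13, -0.07 and -1.47 (SE 0.20), and those of days 1, 2 and 6 passed (adjusted p = 1.5e-05, 7.3e-05 and 6.0e-06), also without any single array. The step from day 2 to day 4 was 1.06 (SE 0.20, adjusted p = 4.3e-04) and from day 4 to day 6 -1.41 (SE 0.20, adjusted p = 6.1e-06). In WT skin the order of days was similar but flatter, with means of 9.17, 8.90, 8.93, 9.45 and 8.81, and no change from day 0 passed. The fall from day 4 to day 6 passed in WT skin, at -0.64 (SE 0.20, adjusted p = 0.02), in 2 of 6 fits with 1 array left out, and was weakest without WT day 6 replicate 2 (-0.50, adjusted p = 0.11). The differences between the genotypes in the change from day 0 were -1.06, -0.88 and -1.11 for days 1, 2 and 6 (95% intervals -1.63 to -0.49, -1.46 to -0.31 and -1.68 to -0.54). None of these passed over all probe sets (adjusted p = 0.18, 0.064 and 0.21). Hair follicle markers were high at days 1 and 6 and near their control level at day 2, and differentiating keratinocyte markers were low at day 4 in both genotypes (8.80 to 10.95 in WT and 7.33 to 9.35 in D6-deficient skin, against 12.25 to 12.48 and 12.72 to 12.82 in controls). The skeletal muscle list mean was 13.73, 11.89, 12.11, 12.63 and 12.05 at days 0, 1, 2, 4 and 6 in D6-deficient skin. In WT skin it was 13.96, 12.63, 12.69, 13.09 and 12.80. The part of these lists in the course of Cyp26b1 was not tested.

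Rarb, the retinoic acid receptor whose promoter is printed above, fell in D6-deficient skin at every day. Its D6-deficient arrays read 5.95, 5.73 and 5.81 at day 0, 4.63, 4.82 and 4.99 at day 1, 4.43, 5.44 and 4.45 at day 2, 4.42, 5.03 and 4.62 at day 4, then 4.98, 4.88 and 5.31 at day 6. All arrays after TPA lay below the controls. The changes were -1.02, -1.06, -1.14 and -0.77 (SE 0.23, adjusted p = 0.0013, 7.2e-04, 2.9e-04 and 0.012), and that of day 6 was lost without D6-deficient day 6 replicate 2 (-0.68, adjusted p = 0.057). In WT skin the changes of -0.71 at day 2 (SE 0.23, adjusted p = 0.024) and -0.74 at day 6 (adjusted p = 0.022) passed. With 1 array left out the day 2 change passed in 4 of 6 fits and the day 6 change in 3 of 6. They were weakest without WT day 2 replicate 1 (-0.49, adjusted p = 0.15) and without WT day 0 replicate 3, at 6.08 (-0.59, adjusted p = 0.11). The day 1 and day 4 changes of -0.52 and -0.55 in WT skin did not pass. The genotypes were not shown to differ, with a day 4 difference of -0.54 (95% interval -1.01 to -0.07, adjusted p = 0.4). Over the 10 group means Rarb and Aldh1a1 had a Pearson r of 0.85. Skeletal muscle markers also fell at every day in each genotype, as given above, and their part in the fall of Rarb was not tested.

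Between the genotypes on the same day, none of the 11 probe sets passed at day 0 (1.57% of all did), day 1 (0.0555%), day 4 (0.513%) or day 6 (0.125%). At an unadjusted p under 0.05 they numbered 3, 2, 3 and 3, and at day 2, where 4 passed, 6. For the change from day 0, none passed at day 1 (0.0194% of all), day 4 (0.608%) or day 6 (0.025%), and 1, 1 and 2 had an unadjusted p under 0.05. Among those at day 0 and day 1 were Lrat and Cyp26b1, the latter 0.47 higher in D6-deficient controls (95% interval 0.07 to 0.88) and -0.59 at day 1 (95% interval -0.99 to -0.18). No share of all probe sets is given at the unadjusted threshold, so the unadjusted counts are not read as genotype differences.

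For each gene the other genes whose 10 group means followed its quoted probe set most closely are named with their Pearson r, a description over 10 means with no test. For Aldh1a3 these were Car2 (0.98), Renbp (0.976) and Amdhd2 (0.966). For Crabp1 they were Ccdc88b (0.989), Fcnb (0.984) and Il13ra1 (0.982), and for Crabp2 Psd4 (0.975), Plekhb2 (0.972) and Cpsf2 (0.967). For Aldh1a1 they were LOC100502705 (0.98), Lrrc39 (0.98) and Cox7a1 (0.973), and for Rarb A230061C15Rik (0.965), Ubac1 (0.964) and Gpr126 (0.964). For Cyp26b1 they were Neat1 (0.962), Myo1d (0.956) and Cxcr7 (0.942), and for Stra6 Fam3c (0.953), Polh (0.942) and Pih1d1 (0.922). For Lrat they were 5330426P16Rik (0.948), 4430402I18Rik (0.924) and Alb (0.923).

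Of 45 other genes of the retinoid pathway, 41 had a tested probe set, and the brightest was used. At day 4, 8 were higher and 20 lower in WT skin and 8 higher and 18 lower in D6-deficient skin, which is 68.3% and 63.4% of them. Of all probe sets, 17.3% were higher and 21.8% lower in WT skin and 18.8% and 22.4% in D6-deficient skin at this day. At day 2 the counts were 6 higher and 5 lower in WT skin and 7 higher and 15 lower in D6-deficient skin, or 26.8% and 53.7%, beside 11% higher and 15% lower, and 17.5% higher and 20.6% lower, of all probe sets. WT skin had 4 higher and 6 lower at day 1 and 2 higher and 6 lower at day 6, or 24.4% and 19.5%, near the 24% and 22.1% of all probe sets. D6-deficient skin had 5 higher and 15 lower at day 1 and 2 higher and 11 lower at day 6, or 48.8% and 31.7%, where 36.3% and 31.7% of all passed. The median change of the 41 genes was -0.39 in WT skin and -0.38 in D6-deficient skin at day 4.

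Among these 41 genes, the retinol carrier Rbp2 had the largest rise at day 2. Its day 2 change was 3.80 in WT skin and 3.29 in D6-deficient skin (SE 0.23, adjusted p = 7.4e-11 and 3.5e-10), and that of day 4 was 3.04 and 2.03 (adjusted p = 8.6e-10 and 2.3e-07). Fabp5, a fatty acid binding protein that also carries retinoic acid, followed at day 2 in WT skin with a rise of 1.05 (SE 0.17, adjusted p = 5.5e-05). Rarres2, the retinoid-responsive gene for chemerin, rose by 1.47 at day 2 and 2.16 at day 4 in D6-deficient skin (SE 0.21, adjusted p = 6.2e-06 and 1.6e-08), and its WT change of day 4 was 1.75 (adjusted p = 5.4e-07). Rarres1, another retinoid-responsive gene, had the largest fall, with WT changes of -2.20 and -2.95 at days 2 and 4 and D6-deficient changes of -4.36 and -4.03 (SE 0.38). Tgm2, a transglutaminase inducible by retinoic acid, fell at day 2 in WT skin by 1.11 on the log2 scale (SE 0.25, adjusted p = 0.0017). Rbp4, the plasma retinol carrier, fell at day 4 in WT skin (-2.25, SE 0.42, adjusted p = 1.4e-04), and the retinol dehydrogenase gene Sdr16c5 fell at day 4 in D6-deficient skin (-3.42, SE 0.35, adjusted p = 3.1e-08). Fabp5 and Tgm2 passed in the same direction at day 2 in D6-deficient skin, with means from 13.04 to 13.98 and from 12.08 to 10.89. Sdr16c5 also passed as lower at day 4 in WT skin (7.44 to 5.75). Rbp4 did not pass at day 4 in D6-deficient skin (10.13 to 9.33). No same-day genotype difference passed in these 4 genes at these days.

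At day 2 the genotypes differed in 6 of these 41 genes (14.6%), all lower in D6-deficient skin, where 4.45% of all probe sets passed and 1.99% were lower. They were the dehydrogenases Rdh9 (-1.40, SE 0.36), Rdh1 (-1.15, SE 0.27), Rdh11 (-0.94, SE 0.27) and Rdh13 (-0.62, SE 0.14), the receptor Rarg (-0.35, SE 0.10) and Rarres1 (-1.74, SE 0.38), with adjusted p from 0.0067 to 0.046. In the change from day 0, 8 were lower and none higher (19.5%), where 5.4% of all passed and 2.62% were lower. They were the same 6 with Rdh12 (-0.96, SE 0.28) and Rai14 (-0.85, SE 0.19). All of these had a higher mean in D6-deficient than in WT controls, differences that did not pass. The control means were 9.09 and 8.47 for Rdh12 and 9.84 and 9.34 for Rai14, D6-deficient first. Neither of these genes passed in the same-day test at day 2. Among the other same-day comparisons, Aldh1a7 was lower in D6-deficient controls (-1.92, SE 0.47, adjusted p = 0.037) and Rdh10, which makes retinal from retinol, was higher in D6-deficient skin at day 4 (0.77, SE 0.16, adjusted p = 0.018), and none passed at days 1 and 6. Rdh9 in D6-deficient skin fell by 2.09 on the log2 scale from day 0 to day 2 (SE 0.36, adjusted p = 6.5e-05). Its probe set is of the kind with the suffix _s_at, which can match related genes, so its values are uncertain. At day 2, 2 of 5 sebocyte markers and 2 of 5 skeletal muscle markers were lower in D6-deficient skin, as given above. Their part in these differences was not tested.

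**Figure D5:**
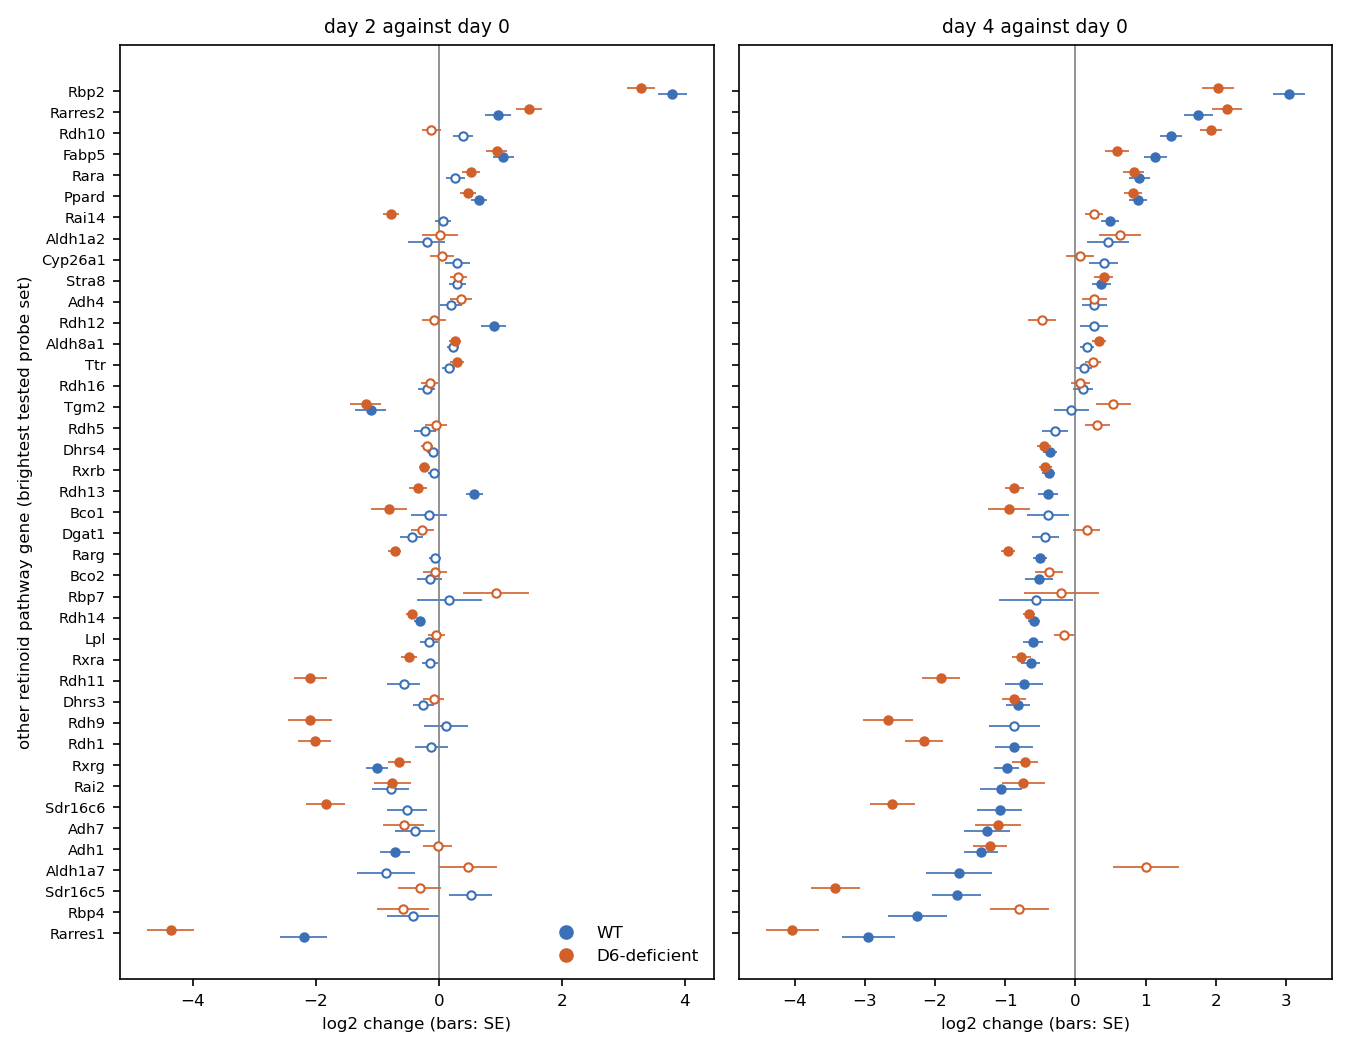
Log2 change from day 0 (horizontal axis, bars are SE) of 41 other retinoid pathway genes (vertical axis, ordered by the WT change at day 4), at day 2 (left) and day 4 (right), with WT in blue and D6-deficient in orange; filled circles have an adjusted p under 0.05 and open circles do not. Rbp2 lies farthest right at day 2 in both genotypes, and Rarres1 farthest left.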

How the data were processed

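Whole back skin RNA of 30 mice was hybridized to Affymetrix Mouse430_2 arrays. The deposited values are linear intensities that the authors normalized with RMA, which corrects background, equalizes the distributions of the arrays and summarizes each probe set. The base-line transformation in the methods is not part of them. The version of the software was not given in the sources used here. A second deposited text holds a sample sheet, which was used to check the sample of each column. The column name of WT day 6 replicate 3 lacked the letter d, and the sheet gives its array for that sample.

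The log2 of the intensities was taken without further scaling. After 64 control probe sets were left out, 45037 remained, and the 20% with the lowest mean were left out, as in the methods. Groups follow the sample titles. limma 3.58.1 (R 4.3.3; lmFit, eBayes) was run on all 30 arrays together, with a mean for each genotype and day and no replicate block, with Benjamini-Hochberg adjustment within each of 19 contrasts. Another 4 contrasts were added after values were seen. The script was tested on simulated data. The number of arrays limits the precision.

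The 9 genes, the pathway list and the marker lists were chosen with earlier results of these data known. Named are every probe set of the 9 genes, the 2 pathway genes with the largest rise and fall in each day 2 and day 4 contrast with day 0, pathway genes that differed between genotypes at day 2, the 3 most similar genes, and Ccbp2 (2 genes of the pathway list are not reported here); Aldh1a7, Rdh10 and Rdh11 at other contrasts were named after their values were seen. Alternatives were no filter, median centring, only the arrays of a contrast, a replicate block, array sets, an intensity trend, the 3-fold threshold, the methods' t-test, the mean of a gene's probe sets and leaving out each array. Promoter windows are those of RefSeq. Figures were drawn with Python 3.11.15 and matplotlib 3.10.9.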

Additional observations from a re-analysis of the deposited data

Results flagged for a closer look

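Several changes differed between the genotypes by a direct test in limma. Relative to day 0, the 3 Aldh1a3 probe sets were higher at day 2 in D6-deficient skin, by 2.37, 2.07 and 2.76 on the log2 scale. In the step from day 2 to day 4 the genotypes differed by -2.53 and -2.71 on 2 of these probe sets, a comparison added after the values were seen. In the change from day 0 to day 2, D6-deficient skin was lower in Rdh9 (-2.22), Rarres1 (-2.16), Rdh1 (-1.91), Rdh11 (-1.52), Rdh12 (-0.96), Rdh13 (-0.93), Rai14 (-0.85) and Rarg (-0.66). These genes had higher means in D6-deficient than in WT controls, as given above, and single arrays were not left out for them. In the step from day 2 to day 4 the genotypes differed in Rdh10 by 1.08. Groups of 3 arrays are too small for a test of single outlying arrays.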

How the results depend on the processing

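No change past the threshold in the 11 probe sets turned direction under any alternative run. Of 498 fits with 1 array left out, 408 kept the call and 90 lost it, and of 74 changes, 71 kept their call without the filter, 71 with median centring, 72 with the array sets, 74 with the intensity trend, and 67 of 73 with only the arrays of the contrast. The numbers of the samples did not pair them: same-numbered arrays had correlations of -0.35 to 0.48 (median -0.01), and with the replicate block 72 of 74 changes kept their call, with counts such as 8 in WT skin at day 4 and 7 in D6-deficient skin at day 1, and no count moved by over 1.5 times.

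With only the arrays of the contrast, the counts of probe sets were 5 in WT skin at day 1, 7 at day 6, 9 in D6-deficient skin at day 1, 1 between the genotypes at day 0, 3 from day 4 to day 6 in D6-deficient skin, 6 from day 2 to day 4 in WT skin, and 1 for the genotype difference in the step from day 2 to day 4. With more than 3-fold added, they were 1 in WT skin at day 2 and 0 at day 6, 0, 5, 4 and 1 in D6-deficient skin at days 1, 2, 4 and 6, 3 and 0 from day 4 to day 6, and 1 and 0 from day 2 to day 4, in WT and D6-deficient skin. With the methods' t-test at an unadjusted p and 3-fold they were 1 and 0 in WT skin at days 2 and 6, 0, 5, 3 and 1 in D6-deficient skin, 1 between the genotypes at day 1, and 3 and 0 from day 4 to day 6. After Benjamini-Hochberg adjustment of that test they were 1 and 0 in WT skin, 0, 4, 2 and 0 in D6-deficient skin, 0 between the genotypes at day 2, 1 relative to day 0 at day 2, and 2 and 0 from day 4 to day 6. With only the arrays of the contrast, some counts rose and others fell. The shares of all probe sets under that setting and under the t-tests are not given. These counts show how calls depended on the setting and are not read as results about the genes. The cause of the shifts was not tested.

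With 1 array left out, the counts ran from 2 to 4 in WT skin at day 2 (2 without WT day 0 replicate 3 and 3 without WT day 0 replicate 1, WT day 2 replicate 1 or 3), 2 to 4 at day 6 (2 without WT day 6 replicate 2), 3 to 5 in D6-deficient skin at day 1 (3 without its replicate 1), 4 to 8 at day 6 (4 without its replicate 2), 0 to 1 between the genotypes at day 1 (1 without D6-deficient replicate 3), 2 to 4 at day 2 (2 without WT replicate 1 or D6-deficient replicate 2 or 3), 1 to 3 relative to day 0 at day 2 (1 without D6-deficient day 2 replicate 2), 4 to 5 from day 4 to day 6 in WT skin (4 without WT day 4 replicate 1 or 3 or WT day 6 replicate 2 or 3), 1 to 2 from day 2 to day 4 in WT skin (1 without WT day 4 replicate 2 or 3), 1 to 4 in D6-deficient skin (4 without its day 2 replicate 1, and 1 without its day 2 replicate 2 or 3 or day 4 replicate 1), 1 to 3 for the genotype difference in that step (1 without any WT array of these days, D6-deficient day 2 replicate 2 or 3 or day 4 replicate 1), and 1 to 2 over all 5 days (2 without WT day 1 replicate 1, D6-deficient day 2 replicate 2 or day 6 replicate 1 or 3). The same-day genotype differences had SEs of 0.20 to 0.46, which limits the differences that could be detected. The dimmer Lrat probe set lay close to the lowest mean kept, as did the brighter one in D6-deficient skin at days 0, 2 and 4.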
